A study of Mus musculus with 2 samples.

Results

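The genes described here encode 9 serpins that circulate in plasma and are made in the liver, not all of them only there. They are Serpina1a, Serpina1b, Serpina6, Serpina10, Serpinc1, Serpind1, Serpinf1, Serpinf2 and Serping1. They were chosen by name, with earlier results of these data known. All 9 were found among the 21887 protein-coding genes of the RefSeq table used. For each gene, the peak summits of an Hnf4a map lying inside the gene or within 50 kb of its ends were collected, and summits of both replicates within 100 bp of each other were counted as shared. There were 19 such summits in replicate 1, out of 21283 in that list, and 17 in replicate 2, out of 24097, and they formed 8 shared regions. Neighbouring genes can hold the same summit, so the Serpina genes of chromosome 12 were treated as 1 locus and the adjacent Serpinf1 and Serpinf2 as another, which gave 5 loci.

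The map was made in iHepCs, hepatocyte-like cells obtained by retroviral expression of Foxa2 and Hnf4a in mouse embryonic fibroblasts of wild-type C57BL/6J mice, so the factor that was mapped is also 1 of the 2 that were introduced. The cells grew in a serum medium with insulin, 100 nM dexamethasone and the growth factors HGF and EGF, each at 20 ng/ml. Hnf4a was located with an antibody and chromatin integration labelling (ChIL-seq), in which Tn5 transposase tags DNA close to the antibody and the tagged DNA is amplified by transcription in the fixed cells, here for 20 h in wells plated with 10000 cells. There is 1 group of 2 replicates, each with its own deposited peak list, and no control samples were analysed here. No comparison between conditions could therefore be tested, and with 2 samples both values are given in place of a mean. Each summit is a 1-bp position in build mm10 with a score, the −log10 of the q-value given by the authors' peak caller, and read depth is unknown. The lists hold no expression, so the hepatocyte identity of the cells could not be checked against markers here.

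Serpins are a family of proteins with 1 shared fold. An inhibitory serpin offers an exposed loop to its target protease, and cleavage of the loop flips it into the body of the serpin and traps the protease in an inactive complex. The liver secretes the serpins that hold clotting, fibrinolysis, complement and neutrophil proteases in check, while some members have lost inhibition and work as hormone carriers or signalling proteins. Hnf4a is a nuclear receptor that binds promoters and enhancers of many genes for secreted liver proteins, and the alpha-1-antitrypsin promoter is a classic target of hepatocyte nuclear factors.

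The summits closest to a start site were those of the alpha-1-antitrypsin genes, and their promoters are printed here because summits of both replicates fell inside them. Serpina1a and Serpina1b encode inhibitors of neutrophil elastase, and both are read from the minus strand of chromosome 12. The sequences are the 250 bases before each start site from RefSeq (GRCm38.p6, the assembly of mm10), written 5′ to 3′ along the gene, and capitals mark the bases from the summit of 1 replicate to that of the other. The Serpina1a stretch is chr12:103863620-103863869 and the Serpina1b stretch is chr12:103738190-103738439.
Serpina1a: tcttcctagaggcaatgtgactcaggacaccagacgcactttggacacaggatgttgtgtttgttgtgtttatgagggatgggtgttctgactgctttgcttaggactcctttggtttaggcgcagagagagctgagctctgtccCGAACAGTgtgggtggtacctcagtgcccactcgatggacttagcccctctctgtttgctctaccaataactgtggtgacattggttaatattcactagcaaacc
Serpina1b: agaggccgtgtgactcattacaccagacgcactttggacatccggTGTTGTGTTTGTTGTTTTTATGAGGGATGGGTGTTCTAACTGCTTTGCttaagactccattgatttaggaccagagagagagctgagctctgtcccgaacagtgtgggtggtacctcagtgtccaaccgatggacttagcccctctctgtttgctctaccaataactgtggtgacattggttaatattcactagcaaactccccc

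In front of Serpina1b (chromosome 12, 103728156 to 103738189), the replicate 1 summit stood 205 bp before the start site with a score of 24.3, and the replicate 2 summit 158 bp before it with 16.9. Both were high in their own lists: 96.8% of replicate 1 summits and 92.6% of replicate 2 summits scored lower. The summits were 47 bp apart. At Serpina1a (chromosome 12, 103853295 to 103863619) they were only 7 bp apart, at 105 bp before the start site in replicate 1 and 98 bp before it in replicate 2. The Serpina1a pair was uneven in score, with 10.9 in replicate 1 and 4.30 in replicate 2, where only 20.9% of summits scored lower. The position was thus close to identical in both libraries while the score of replicate 1 was 2.54 times that of replicate 2. Of all 32851 RefSeq promoter windows of 300 bases (250 before to 50 after a start site), 1235 (3.76%) held a summit of each replicate.

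The mouse carries several near-copies of the alpha-1-antitrypsin gene side by side. Promoter windows were compared for 5 of them, Serpina1a to Serpina1e. That of Serpina1f, in the same cluster, held no summit and was not aligned with them. Those of Serpina1a and Serpina1b held summits of both replicates, and those of Serpina1c, Serpina1d and Serpina1e held none in either. Between pairs of these 5 windows, 91.7% to 98.4% of the aligned bases were identical, with gaps left out. With gaps counted, 63.3% to 91.4% of the alignment columns were identical. The longest stretch shared without a difference ran from 59 to 119 bases. Serpina1a and Serpina1b shared 93.2% of aligned bases and at most 72 in a row. The sources used here do not say how the authors' alignment treated reads that match more than 1 copy, so the part that read placement has in which copies carry a summit was not tested.

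Letters known from sites of hepatocyte factors were searched on both strands of the windows. Both 9-base HNF4 forms tried, CAAAGTCCA and CAAAGTTCA, were not in the Serpina1a or Serpina1b windows, and neither was the nuclear receptor core AGGTCA. These 3 occur in 0.475%, 0.390% and 16.3% of all promoter windows. All 5 copies held the FOXA form TGTTTGC (5.07% of all windows) and the HNF1 core GTTAAT (7.10%), in the same order towards the start site. The Serpina1f window held neither. The C/EBP form TTGCNNAA (10.8%) was found in Serpina1b from 161 to 154 bp before the start site, across the replicate 2 summit, in Serpina1a only after the start site, and also before the start sites of Serpina1d and Serpina1e, which held no summits. The AP-1 form TGANTCA, a palindrome that matches both strands at once, was in 7.81% of windows. Those of Serpina1a, Serpina1b, Serpina1c and Serpina1d held it, with and without summits, at the far end from the start site. In Serpina1e the HNF1 core lay from 78 to 73 bp before the start site, against 21 to 16 bp in Serpina1a. The Serpina1e window is thus offset and does not reach the place of the AP-1 form. FOXA in the form TGTTTAC (3.65%) and the TATA form TATAAA (13.6%) were not in the Serpina1a or Serpina1b windows.

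A shorter HNF4 core, AAGTCCA, was added after the sequences had been seen. Read on the opposite strand as TGGACTT, it lay in the Serpina1a and Serpina1b windows and in none of the other 3 copies. The 30 bases that end with the FOXA form are shown for all 5 copies (chr12:103863666-103863695, chr12:103738241-103738270, chr12:103905003-103905032, chr12:103773675-103773704 and chr12:103957001-103957030, all minus strand), with the 7 bases at the place of this core in capitals.
Serpina1a: actcgaTGGACTTagcccctctctgtttgc
Serpina1b: aaccgaTGGACTTagcccctctctgtttgc
Serpina1c: aatcgaTGAACTTagcccctctctgtttgc
Serpina1d: aatggaTGGACTCtctccctctctgtttgc
Serpina1e: aatcgaTGGACATagcccctctctgtttgc

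Counted from the first of the 30 bases and with Serpina1a as the reference, the capitals of Serpina1c differ by G9A, those of Serpina1d by T13C and those of Serpina1e by T12A. With G9A, Serpina1c reads TGAACTT, the opposite strand of AAGTTCA, which is the other form, CAAAGTTCA, shortened in the same way. A copy without summits thus holds a core cut from that form, and which copies match depends on the form that was shortened. AAGTTCA was not searched across the promoter windows. In Serpina1a the core AAGTCCA lay from 70 to 64 bp before the start site, with its centre 31 bp from the nearer summit. In Serpina1b it lay from 75 to 69 bp before the start site, with its centre 86 bp from the nearer summit. Across all promoter windows the core was not more frequent where summits lay: 37 of 1235 windows with summits of both replicates held it (2.996%), against 1334 of the other 31616 (4.22%). A match to so few letters describes the sequence and does not show a bound site.

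**Figure D1:**
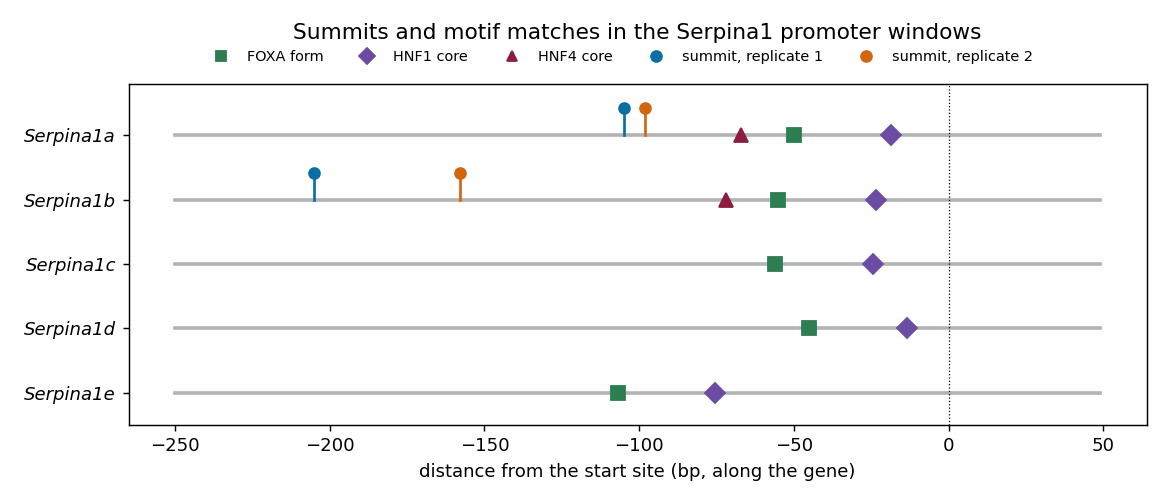
Promoter windows of the 5 alpha-1-antitrypsin copies, with the distance from the start site in bp along the gene on the horizontal axis and 1 gene per line; stems are summits (blue, replicate 1; orange, replicate 2) and symbols are the centres of letter matches. Summits stand in the windows of Serpina1a and Serpina1b, between 98 and 205 bp before the start site. The same 2 windows hold the HNF4 core AAGTCCA, while the FOXA form and the HNF1 core are in all 5. AAGTCCA was chosen after these sequences had been seen. Across all promoter windows it was not more frequent where summits lay (2.996% against 4.22%). Matches to the C/EBP and AP-1 forms, found in copies with and without summits, are not drawn. Also not drawn is AAGTTCA, the other HNF4 form shortened in the same way, which Serpina1c holds without summits.

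The remaining shared region within 50 kb of the Serpina genes described here lay downstream of Serpina1a, 25072 bp past its end in replicate 1 and 25123 bp in replicate 2. Its scores of 23.1 and 20.2 were nearly even, and 96.2% and 95.5% of the summits of each list scored lower. No protein-coding gene lay nearer than Serpina1a, and the next, Serpina1d, was 54539 bp away. Replicate 2 had a further summit, scoring 5.96, at 767 bp from the replicate 1 summit of that region.

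The cluster's other members had no shared region. Serpina6 (chromosome 12, 103646630 to 103657218) encodes corticosteroid-binding globulin, the plasma carrier of glucocorticoids, and Serpina10 (103616675 to 103631490) encodes the protein Z-dependent inhibitor of activated clotting factor X. A replicate 1 summit scoring 5.64 lay 677 bp from the lower-numbered end of Serpina10, and the nearest replicate 2 summit, scoring 6.04, was 17489 bp from that summit, inside Ppp4r4. Serpina6 had no summit of either replicate within 26 kb, the nearest being 26764 bp away in replicate 1 (4.02) and 48121 bp away in replicate 2 (6.04). The nearest shared region was 81129 bp from Serpina6 and 106857 bp from Serpina10, in each case that in front of Serpina1b. In the whole cluster, 2 further shared regions lay inside Serpina9, and 1 lay 1390 bp from Serpina3n.

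**Figure D2:**
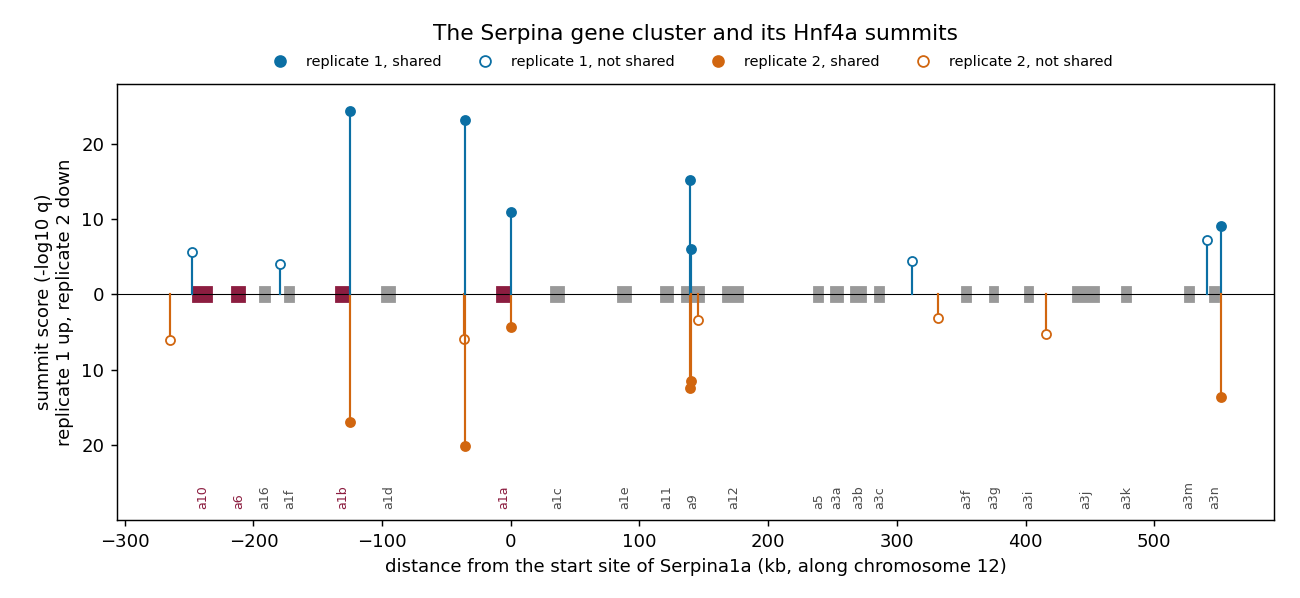
The Serpina genes of chromosome 12 (boxes; dark red, the 4 genes described here; grey, the others, named without the prefix Serpin) and all summits around them, with the distance from the Serpina1a start site in kb on the horizontal axis and the score (−log10 q) upwards for replicate 1 and downwards for replicate 2. Filled points are shared summits; the highest stand in front of Serpina1b and between Serpina1d and Serpina1a.

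The inhibitors of clotting proteases outside the Serpina cluster, Serpinc1 and Serpind1, both had shared regions. Serpinc1 (chromosome 1, 160978583 to 161002543) encodes antithrombin, which inhibits thrombin and activated factor X. It was the only 1 of the 9 genes with a shared region inside the gene, 2009 bp past the start site in replicate 1 and 2091 bp in replicate 2. The scores there were 7.70 and 6.50, near the middle of both lists (53.5% and 48.2% of summits scored lower). A higher-scored replicate 2 summit lay 32512 bp past the gene's end with a score of 14.9, and its partner in replicate 1, 49 bp away, scored 7.02. That pair lay beyond the higher-numbered end of another gene, Zbtb37, at 240 bp in replicate 1 and 191 bp in replicate 2.

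Serpind1 (chromosome 16, 17331371 to 17343574) encodes heparin cofactor II, a thrombin inhibitor activated by dermatan sulfate. Its shared region lay past the end of the gene, at 1893 bp in replicate 1, where it scored 13.9, and at 1977 bp in replicate 2, where it scored 6.73. The annotated span of Pi4ka, a lipid kinase gene, contains Serpind1 and this region. Upstream of Serpind1, replicate 1 had a summit 1264 bp before the start site (5.67), with no replicate 2 summit within 15 kb. The HNF4 form CAAAGTTCA, found in 0.390% of promoter windows, occurred in the Serpind1 window 2 to 10 bases after the start site, and no summit of either replicate lay in that window.

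Around the adjacent genes Serpinf1 and Serpinf2, the replicates did not meet within 100 bp. Serpinf1 (chromosome 11, 75410029 to 75422623) encodes pigment epithelium-derived factor, a serpin without protease inhibition that restrains blood vessel growth, and Serpinf2 (75431736 to 75439501) encodes alpha-2-antiplasmin, the main plasma inhibitor of plasmin. Within Serpinf1, replicate 2 had a summit scoring 3.91, near the low end of that list. Replicate 1 had summits 3664 and 4259 bp past the end of Serpinf1, scoring 10.1 and 4.17, which lay 658 and 63 bp from Smyd4. Neither replicate had a summit inside Serpinf2, and the nearest was 22071 bp away in replicate 1 (10.4) and 12800 bp away in replicate 2 (3.91). A pair of summits upstream of both genes was 119 bp apart, just beyond the limit for sharing, with scores of 10.4 and 8.54 at 22071 and 21952 bp from Serpinf2.

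Serping1 (chromosome 2, 84765360 to 84775444) encodes C1 inhibitor, which controls the first complement proteases, plasma kallikrein and activated factor XII. None of its summits lay within 20 kb. A shared region 21437 bp from the gene's lower-numbered end had summits only 2 bp apart, with scores of 11.7 in replicate 1 and 12.99 in replicate 2, and the nearest gene was Ypel4 at 5266 bp. On the other side, a shared region 23852 bp away lay inside Ube2l6, which encodes a ubiquitin-conjugating enzyme, with scores of 7.57 and 11.4. Another pair, at 49664 and 49777 bp, was 113 bp apart and so not shared, with scores of 13.998 and 10.7, beside Zdhhc5. The widest pairs that counted as shared were those at Serpind1 and inside Serpinc1, at 84 and 82 bp. The pairs next beyond the limit were those of Serping1 and Serpinf2 at 113 and 119 bp.

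**Figure D3:**
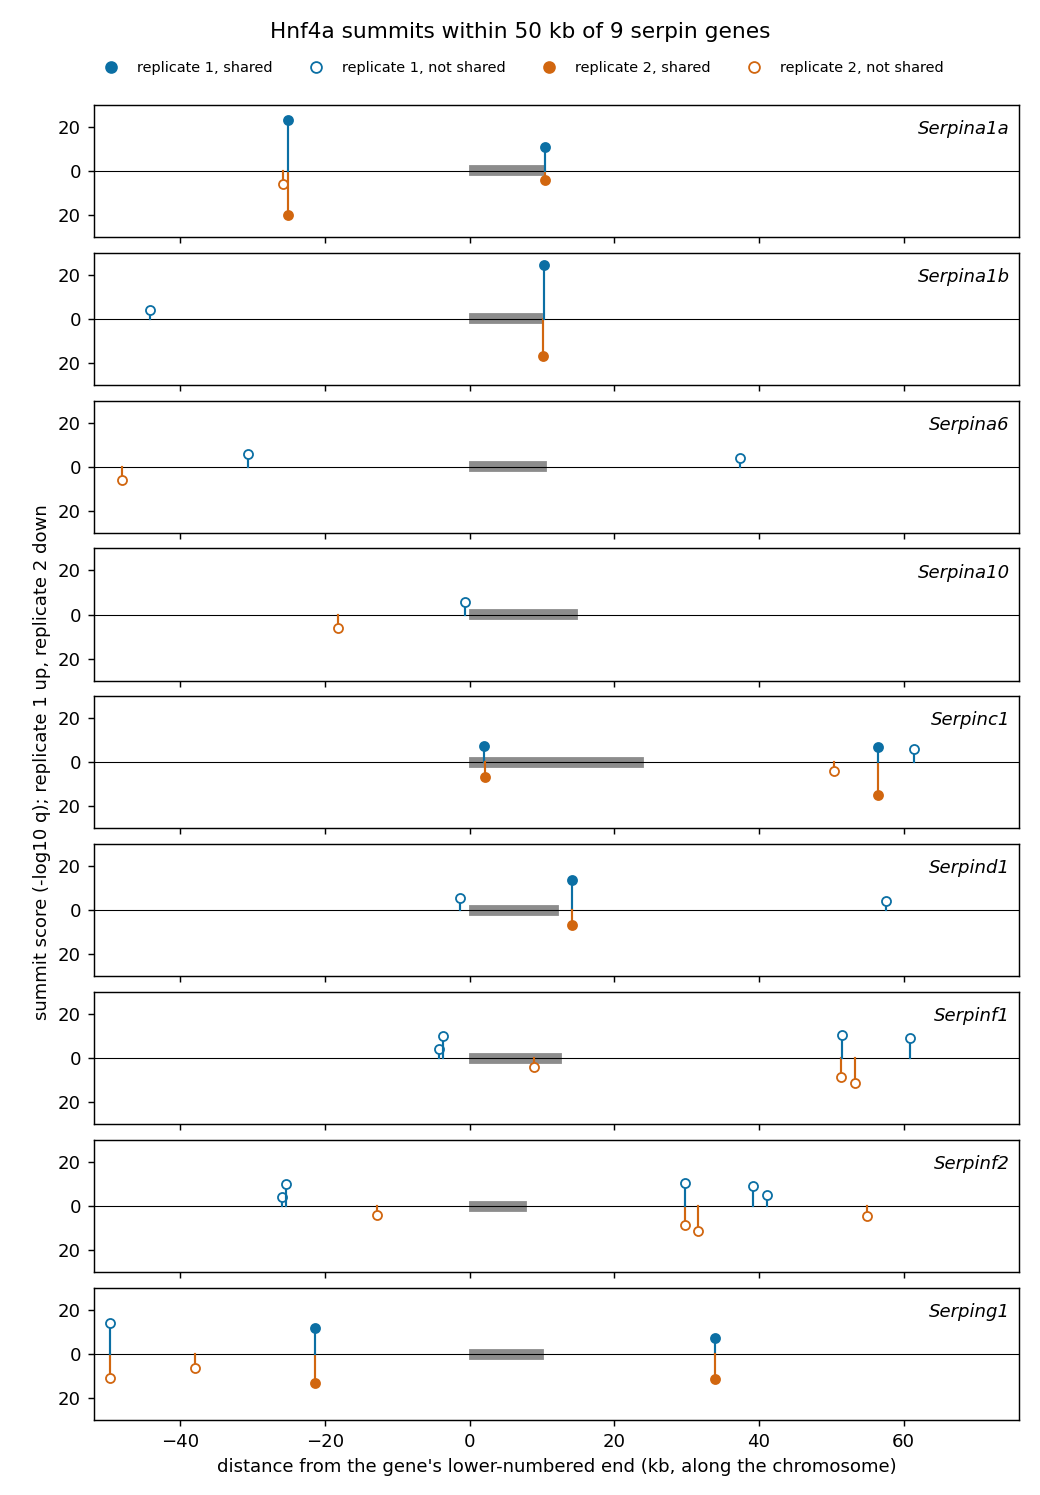
Summits within 50 kb of each of the 9 genes, with the distance from the gene's lower-numbered end in kb on the horizontal axis, the gene as a grey bar and the score (−log10 q) upwards for replicate 1 and downwards for replicate 2. Filled points are shared between replicates within 100 bp; Serpina6, Serpina10, Serpinf1 and Serpinf2 have open points only.

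Over the 5 loci, 8 of 19 summits were shared in replicate 1 (42.1%, 95% exact binomial interval 20.3 to 66.5) and 8 of 17 in replicate 2 (47.1%, 22.98 to 72.2). In the complete lists the shares were 43.2% and 38.2%. The intervals cover counting error only and treat summits as independent, which those of the same locus need not be. No test was run between these shares. Shared summits at the loci had median scores of 11.3 in replicate 1, ranging from 7.02 to 24.3, and 12.2 in replicate 2, ranging from 4.30 to 20.2. The medians of all 9193 shared regions were 9.93 and 9.61. The summits at the loci without a partner ran from 4.02 to 13.998 in replicate 1 (median 5.67) and from 3.91 to 11.4 in replicate 2 (median 6.04), so the ranges overlapped. Replicate 1 had the higher score in 5 of the 8 shared regions and replicate 2 in 3.

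**Figure D4:**
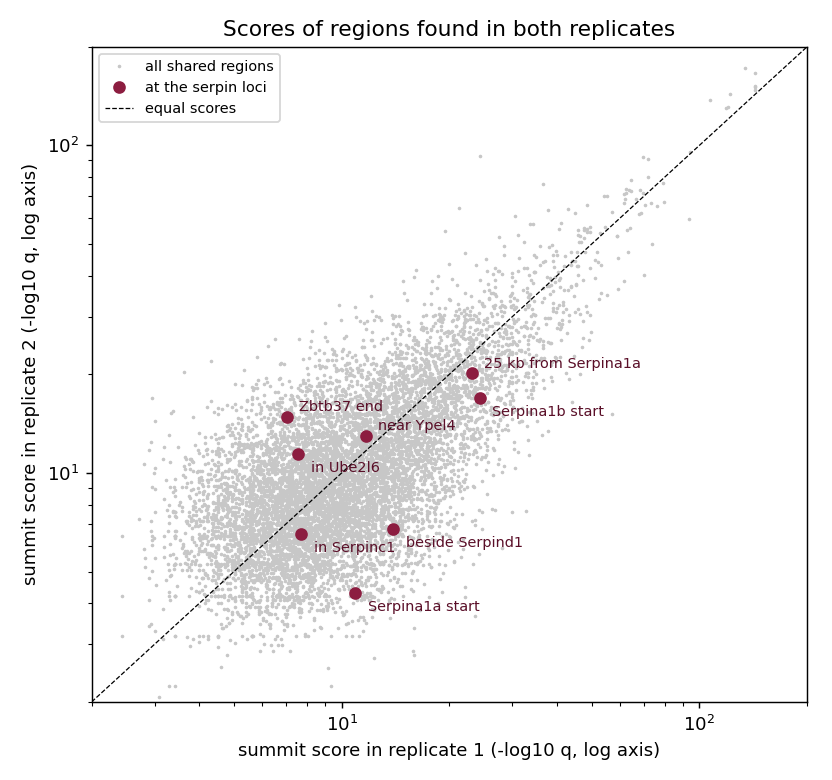
Score of each shared region in replicate 1 (horizontal, −log10 q, log axis) and replicate 2 (vertical, same unit, log axis); grey points are the 9193 shared regions of the series, of which 6 beyond 200 on either axis are not drawn, and dark red points are the 8 at the serpin loci. The region downstream of Serpina1a lies near the line of equal scores, and the Serpina1a start region lies farthest below it. The label for Zbtb37 refers to the higher-numbered end of that gene.

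Read against all protein-coding genes, the count of serpin genes depended on how close a region had to be. A shared region was inside the gene or within 50 kb for 5 of the 9, against 47.9% of all 21887 genes. These 5 were Serpina1a, Serpina1b, Serpinc1, Serpind1 and Serping1. Of the 5 loci, 4 had one, a count without a matching share because a locus can join the windows of several genes. Within 10 kb there were 4 of 9, against 26.0% of all genes, and within 1 kb there were 3 of 9, Serpina1a, Serpina1b and Serpinc1, against 18.9%. Inside the gene there was 1 of 9, against 13.5%. Taking the replicates alone, all 9 genes had a summit within 50 kb in both, where 70.2% of all genes did in replicate 1 and 73.4% in replicate 2. Within 10 kb, replicate 1 had a summit for 6 of 9 genes (46.4% of all genes) and replicate 2 for 5 of 9 (49.2%). Since 9 genes in 5 loci are few and not independent, these shares describe the genes and no test was run.

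**Figure D5:**
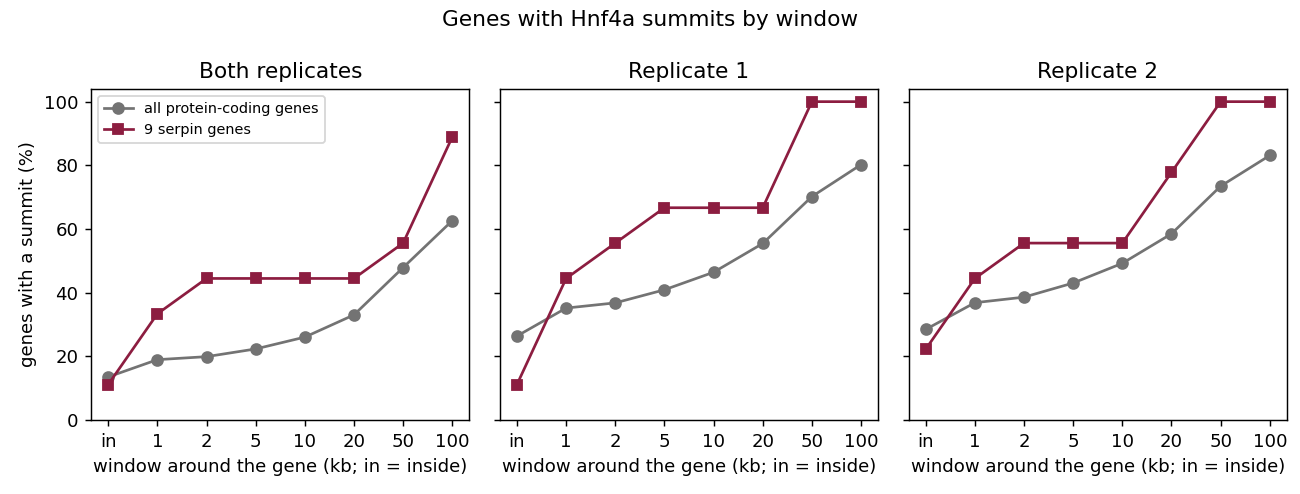
Percentage of genes with a summit inside the gene or within the window given in kb on the horizontal axis, for the 9 serpin genes (squares) and all 21887 protein-coding genes (circles), in both replicates within 100 bp, in replicate 1 and in replicate 2. The percentage of the 9 serpin genes with a shared region is 44.4% from 2 to 20 kb, while that of all genes rises from 19.9% to 33.0%. At 50 kb the percentages are 55.6% and 47.9%.

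Among the 54 other genes named Serpin with a clade letter, 20 had a shared region within 50 kb (37.0%) and 7 within 10 kb (12.96%), below the shares of all genes. The clade A genes, whose products are mostly plasma proteins, had 9 of 20 within 50 kb and 2 of 20 within 10 kb. Those 2 were Serpina9, with a region inside the gene (15.2 in replicate 1 and 12.4 in replicate 2), and Serpina3n, an acute-phase inhibitor, with a region 1390 bp away (9.08 and 13.7). Neighbouring genes of this list can count the same region, so they are not independent. Nor is the list separate from the genes described above. The region in front of Serpina1b also counted for Serpina1d, and that in front of Serpina1a for Serpina1c. Clade B genes, which encode intracellular serpins, had 8 of 28 within 50 kb and 4 of 28 within 10 kb. Serpinb6a (15.4 and 20.9), Serpinb6b (16.5 and 15.3) and Serpinb9 (5.89 and 7.07) had regions inside the gene, and Serpinb9e had 1 at 4946 bp (2.44 and 6.43). The remaining gene was Serpini1, which encodes neuroserpin, with a region 414 bp away (13.3 and 8.25). The collagen chaperone gene Serpinh1 and the 3 clade E genes had none within 10 kb.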

How the data were processed

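The 2 deposited BED lists give peak summits called by the authors for each library on its own. Per the submitters' processing notes, the tools were MACS2 2.2.9.1, HISAT2 2.0.5 and fastp 0.23.4, and the build was mm10. The deposited score is the −log10 q-value of each summit, not scaled between libraries, and a q threshold of 0.01 stands in the peak names. The sources used here do not state a control library or removal of duplicates. The labels call the samples biological replicates and the peak names put both in the same lot of cells.

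Gene spans came from the RefSeq table of GRCm38.p6, which has no exons or strand, so exons and introns were not told apart; strand and start sites came from the RefSeq promoter table. It held 6 of the 9 genes, all but Serpina6, Serpina10 and Serping1. A region counted for a gene only if all its summits lay in the window. Neighbouring Serpina genes were 1 locus: the windows of Serpina1b and Serpina1a do not touch, but both belong to 1 gene cluster. Promoter windows were aligned globally, and letters were matched exactly on both strands; AAGTCCA and a direct repeat of AGGTCA were added after the data were seen. The members and lists were chosen with earlier results of these data known. A fixed rule named the 9 genes, the nearest gene to each shared region, and list genes with a shared region within 10 kb. Outside this rule, genes beside unshared summits were named after their values were seen. Some list genes without a shared region within 10 kb were also named outside it. Protein identity was planned and not analysed here. The alternatives were other sharing distances, windows, score thresholds, single replicates and assignment to the nearest gene. Pairing and window counts were tested on simulated data. Computations ran in Python 3.11.15 (Biopython 1.88, matplotlib 3.10.9, scipy 1.17.1, pandas 2.3.3 and numpy 2.4.6).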

Additional observations from a re-analysis of the deposited data

How the results depend on the processing

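Counts within 1.5 times of the reported ones were taken as stable. The 8 shared regions at the loci became 5 with a sharing distance of 50 bp, 3 with the 10000 best-scored summits of each replicate, 4 with a window of 10 kb or of 20 kb, 1 inside genes only, and 4 when a region counted only for its nearest gene. The 5 serpin genes with a shared region became 3 with the best-scored summits, against 32.0% of all genes. A window of 100 kb gave 8 (62.6% of all genes), inside genes only gave 1 (13.5%) and the nearest gene gave 3 (23.6%). The 10477 protein-coding genes became 5694 with 10 kb, 2954 inside genes and 5169 with the nearest gene. With 10 kb, the 20 other Serpin genes became 7 and the 9 protease targets became 2. Using 1 replicate alone gave 17 to 19 summits at the loci, 9 serpin genes, and 15358 to 16075 protein-coding genes (70.2% to 73.4%). The other alternatives kept their counts within 1.5 times. A sharing distance of 200 bp gave 7 serpin genes (52.8% of all genes), adding Serpinf1 and Serpinf2 through the pair 119 bp apart. With scores of 5 or more, the same 5 genes remained (43.9% of all genes). The Serpina1a start region, at 4.30 in replicate 2, was then lost. Joining genes only where their windows touch, an alternative added after the data were seen, gave 5 of 6 loci, and each gene on its own gave 5 of 9. No paired analysis was possible because there is 1 group. Read depth is unknown and limits what the scores can show.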

Other observations

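Of 15 genes for proteases that these serpins are known to inhibit, 9 had a shared region within 50 kb (60%, against 47.9% of all protein-coding genes) and 2 within 10 kb (13.3%, against 26.0%). Masp1, a protease of the lectin complement pathway that C1 inhibitor controls, had 4 shared regions inside the gene or within 1 kb, the best scoring 15.6 in replicate 1 and 10.96 in replicate 2. F11, clotting factor XI, had 1 inside the gene (9.56 and 8.42). The genes with a region only beyond 10 kb were C1ra, C1s1, Elane, F2, Klkb1, Proc and Prtn3. Neighbours such as C1ra and C1s1, F11 and Klkb1, or Elane and Prtn3 can share a region.

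The closest match of the Serpina1a and Serpina1b promoter windows to 2 copies of the core AGGTCA with 1 base between, the layout of a nuclear receptor direct repeat, had 3 mismatches, a level that 24.6% of all promoter windows reach. In Serpina1a it lay from 117 to 105 bp before the start site, so that its last base is the replicate 1 summit, and in Serpina1b from 122 to 110 bp, between the summits and the start site. The same letters, tgagctctgtccc, were the closest match in all 5 alpha-1-antitrypsin copies, including the 3 without summits. The Serpina1f window had other letters as its closest match, with 4 mismatches. This search was added after the data were seen.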
